A study of Homo sapiens with 16 samples.

Results

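The genes followed here encode the core protein complexes of apicobasal polarity, which give an epithelial cell an apical and a basolateral side. They were chosen by name as 10 genes (LLGL1, LLGL2, CRB3, PARD3, PARD6B, PRKCI, DLG1, SCRIB, MPP5 and INADL) of the 57773 genes in the deposited tables. All 10 matched 1 row in each table, and all 10 passed the expression filter (1 TPM or more in 2 or more libraries), which left 16967 genes for testing. MPP5 and INADL are older symbols of PALS1 and PATJ. RNA came from A549, an established human lung adenocarcinoma line, sampled at 0, 6, 12, 24, 36, 48, 72 and 96 h of TGF-beta treatment to induce an epithelial to mesenchymal transition. Each time had 2 libraries, called replicate 1 and replicate 2, which gives 16 libraries. The dose of TGF-beta is not given in the sources used here, and no untreated culture at a later time was analysed here, so treatment and time in culture cannot be told apart. Nothing in the labels says that the replicates were separate cultures, so p-values measure the spread between these libraries, which may be technical.

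Polarity rests on 3 complexes that hold each other in place. The Scribble complex (SCRIB, DLG and LGL proteins) defines the basolateral membrane. The Par complex (PAR3, PAR6 and atypical protein kinase C) acts at the junctions and the apical side, and the Crumbs complex (CRB3, PALS1 and PATJ) marks the apical membrane. The kinase of the Par complex phosphorylates LGL proteins and keeps them off the apical side, while LGL proteins restrain the kinase elsewhere. Cells lose this asymmetry in an epithelial to mesenchymal transition, and SNAI and ZEB repressors are known to act on genes such as CRB3, PATJ and LLGL2.

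Values are TPM, transcript abundances corrected for transcript length and scaled to the same total in each library, so levels of different genes can be compared. TPM hold no read totals, so the depth behind each value is unknown. A set of 6 abundant small RNAs took between 42.5% and 64.1% of the TPM of a library, which moves the scale of every other gene. For this reason results are also given after TMM-type scaling, which sets the trimmed mean of log ratios between libraries to 0. The number of genes listed at 0 was at most 31187 per library, except for up to 36294 in replicate 2 of 36 h and 48 h. Of 6 epithelial markers (KRT8, KRT18, KRT19, KRT7, EPCAM and CDH1), 6 had a mean of at least 1 TPM. Of 5 markers of alveolar type II cells, 0 did, with NKX2-1 at most 0.03 and NAPSA at most 1.21 TPM. In bulk RNA, fewer cells of a type and less RNA per cell cannot be told apart.

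At 0 h the most abundant of the 10 genes was PARD3 at 76.9 ± 10.7 TPM (SD, n = 2 here and for each time below). LLGL2 (28.2 ± 1.74), DLG1 (24.1 ± 0.134), MPP5 (22.2 ± 3.59), PRKCI (22.1 ± 1.28) and INADL (19.0 ± 5.53 TPM) followed. SCRIB was at 15.8 ± 4.83, PARD6B at 11.4 ± 1.82, LLGL1 at 9.46 ± 1.34 and CRB3 at 3.27 ± 0.431 TPM. From DLG1 down to LLGL1, neighbours in this order differed by less than the sum of their SDs. PARD3 ranked highest and CRB3 lowest of the 10 in every one of the 16 libraries. The middle of the order changed: LLGL2 ranked second in both 0 h libraries and at ranks 4 to 8 in the 10 libraries of 24 to 96 h, where DLG1 ranked second in each. LLGL2 supplied 11.2% and 13.1% of the summed TPM of the 10 genes at 0 h, and a median of 4.40% (1.71% to 6.85%) at 24 to 96 h.

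**Figure D1:**
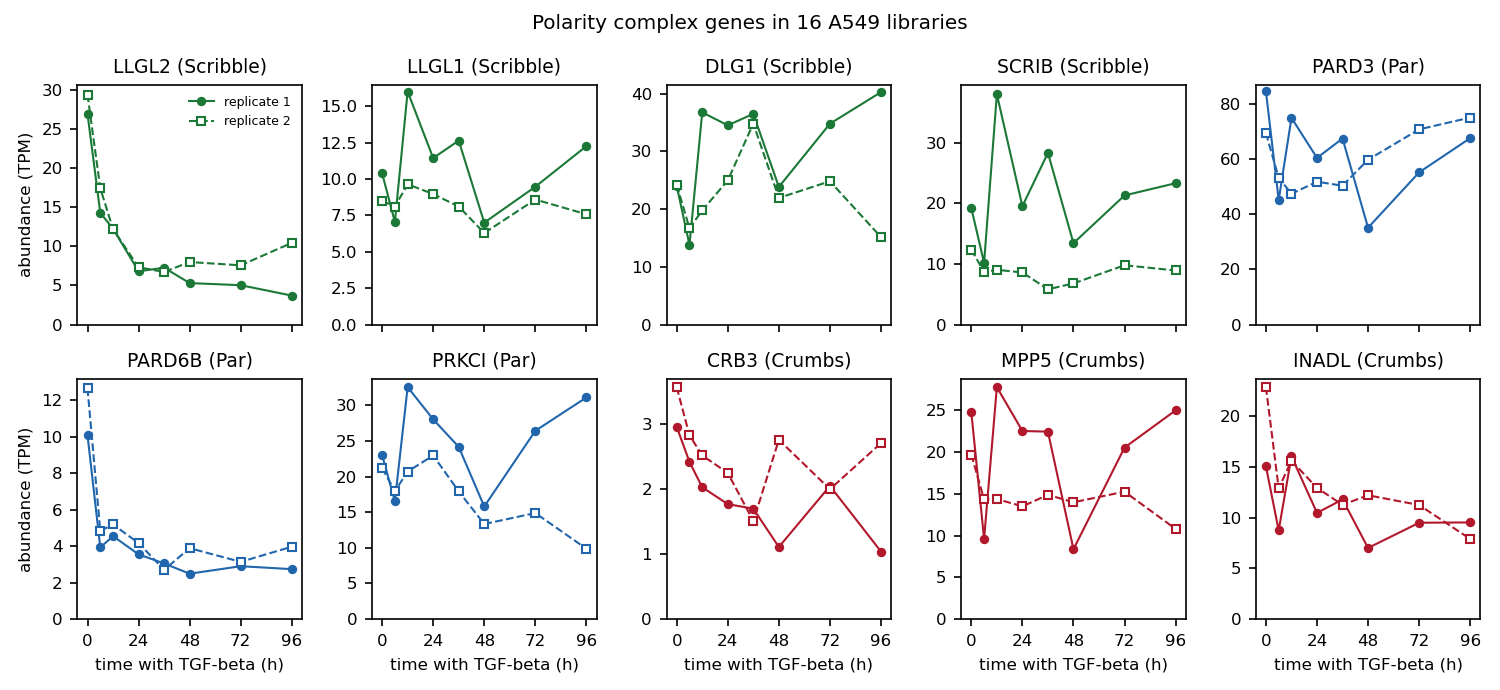
TPM (y axis, from 0, a separate scale for each gene) of the 10 polarity complex genes against hours of TGF-beta (x axis) in replicate 1 (filled circles, solid line) and replicate 2 (open squares, dashed line), coloured by complex. LLGL2, PARD6B and CRB3 lie highest at 0 h in both replicates, and SCRIB lies higher in replicate 1 at all 8 times.

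Against 0 h, 2 of the 10 genes fell, LLGL2 of the Scribble complex and PARD6B of the Par complex, and 0 rose. Both were called at each of the 5 times from 24 to 96 h, and none of the 10 at 6 h (0.0177% of all genes tested) or 12 h (0.383%). Calls are adjusted p below 0.05 by limma over all genes tested. At those 5 times in order, 0.595%, 1.33%, 6.8%, 1.74% and 1.26% of all genes were called lower. When the 5 later times were averaged and set against 0 h, the same 2 genes were called, against 5.35% of all genes called lower and 1.77% higher. The median log2 fold change of the 10 genes in this comparison was -0.42, beside -0.23 for all genes tested, and -0.16 beside -0.02 with TMM-type scaling. At 6 h the median was -0.65 for the 10 genes and -0.37 for all genes as deposited, and -0.15 and 0.03 with TMM-type scaling. The F test over the 8 times called LLGL2 (limma adjusted p = 0.0414) and PARD6B (limma adjusted p = 0.0393), against 1.72% of all genes. With TMM-type scaling the F test called 0 of the 10, against 3.3% of all genes (LLGL2 adjusted p = 0.129 and PARD6B limma adjusted p = 0.114). When a block for replicate number (the replicate block) was added to that scaling, it called both again (limma adjusted p = 0.0159 and 0.00956). In that fit 1956 of 16967 genes were called.

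These calls rest on the pair of 0 h libraries. Of the 10 calls over the 7 times, 0 were kept without replicate 2 of 0 h and 3 without replicate 1, those of PARD6B at 36, 48 and 72 h. With TMM-type scaling of all 16 libraries the number of calls over the 7 times was 3: PARD6B at 36 h (1.53% of all genes lower) and at 72 h (1.59%), and LLGL2 at 72 h. With that scaling and the replicate block together the number was 13, where 390 to 2036 of 16967 genes were called per time. For 24 to 96 h against 0 h LLGL2 and PARD6B stayed called with TMM-type scaling alone (3.68%).

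In the Scribble complex, LLGL2, an LGL scaffold of epithelial cells (chromosome 17, 75525080 to 75575208 on GRCh38, GENCODE 29), had the largest change of the 10. At the 8 times in order, replicate 1 measured 26.9, 14.3, 12.3, 6.81, 7.26, 5.30, 5.03 and 3.70 TPM. Replicate 2 measured 29.4, 17.4, 12.2, 7.32, 6.72, 7.99, 7.57 and 10.4 TPM. Every library of 6 to 96 h lay below both of 0 h. On the deposited scale the highest library of 24 to 96 h (10.4 TPM) also lay below the lowest of 6 and 12 h (12.2 TPM). The share of all genes with such a gap was not counted. These later groups overlapped after TMM-type scaling (highest of 24 to 96 h 13.7, lowest of 6 and 12 h 7.95) and after removal of the small RNAs (27.5 and 21.3). The replicates differed by less than 1 TPM at 12, 24 and 36 h and then parted, with the lowest value of the course in replicate 1 of 96 h, while replicate 2 was at 10.4 TPM there.

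The log2 fold change of LLGL2 from 0 h was -0.80 (SE 0.36) at 6 h and -1.14 (SE 0.36) at 12 h, neither of them called. With TMM-type scaling these were -0.29 and -1.17. It lay between -1.85 at 24 h and -2.02 at 72 h from 24 h on, with adjusted p from 0.0104 to 0.0268 by limma. For the 24 to 96 h mean it was -1.94 (SE 0.28, limma adjusted p = 0.00156), or -1.67 (limma adjusted p = 0.0132) with TMM-type scaling. Without replicate 2 of 0 h it was -1.88 (limma adjusted p = 0.0799).

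A comparison that used no 0 h library set 24 to 96 h against 6 and 12 h. LLGL2 alone of the 10 was called in it, at -0.97 on the log2 scale (SE 0.21, limma adjusted p = 0.0275), against 2.46% of all genes called lower. It was also called with the replicate block (limma adjusted p = 0.00545, 5.39% lower). With TMM-type scaling and the block together LLGL2 (limma adjusted p = 0.0102) and INADL (-0.29, 0.0417) were called lower, as were 10% of all genes. Without the block the call of LLGL2 depended on the setting. The call was lost with TMM-type scaling (-0.94, limma adjusted p = 0.0536) and without any 1 of 8 libraries: both of 6 h, 12 h and 24 h, replicate 2 of 36 h and replicate 1 of 72 h. Across those 8 the adjusted p was at most 0.187 by limma.

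LLGL1, the broadly expressed paralogue, had 10.4 and 8.51 TPM before treatment and 6.29 to 12.6 (median 8.78) over the 10 libraries of 24 to 96 h. Its log2 fold change there was -0.05 (SE 0.24, limma adjusted p = 0.911) and 0.19 with TMM-type scaling, so its direction depended on the scaling. LLGL2 exceeded LLGL1 in 2 of 2 libraries at 0 h, in 3 of 4 at 6 and 12 h and in 2 of 10 at 24 to 96 h. A ratio of a pair of genes in 1 library does not depend on the scaling of that library, apart from the added pseudocount of 1. The log2 ratio of LLGL2 to LLGL1 was 1.29 and 1.68 at 0 h, 0.47 ± 0.64 at 6 and 12 h (SD, n = 4 libraries) and -0.40 ± 0.56 at 24 to 96 h (SD, n = 10 libraries). Later minus early it was -0.87 (p = 0.0340, adjusted p = 0.0340 over 2 ratios, exact permutation test, two-sided, 1001 arrangements). The ranges overlapped: replicate 2 reached 0.30 at 48 h and 0.42 at 96 h, while replicate 1 was at -0.36 at 12 h. The p was above 0.05 in 5 of the 14 runs that left out 1 library. It was 0.122 and 0.126 by the same exact test without replicate 1 and 2 of 6 h, 0.0517 without replicate 1 of 24 h or of 36 h, and 0.0531 without replicate 1 of 72 h.

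**Figure D2:**
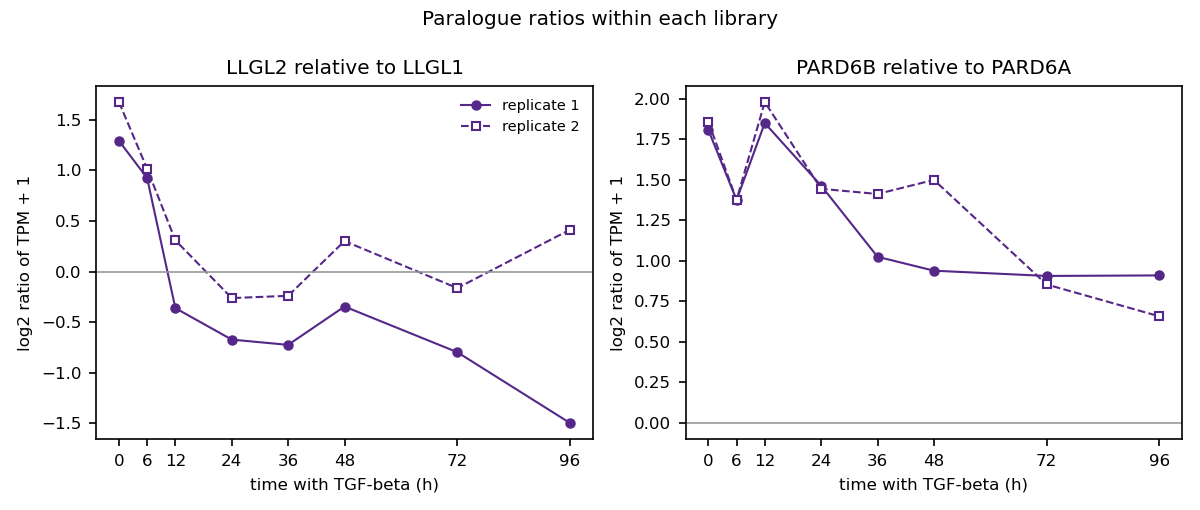
Log2 ratio of TPM + 1 (y axis) of LLGL2 to LLGL1 (left) and of PARD6B to PARD6A (right) in each library against hours of TGF-beta (x axis), replicate 1 as filled circles and replicate 2 as open squares. The LLGL2 ratio starts at 1.29 and 1.68 and is below 0 in all 5 later libraries of replicate 1; the PARD6B ratio stays above 0 and is lowest in replicate 2 of 96 h, at 0.66.

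DLG1, a membrane-associated guanylate kinase scaffold of the basolateral side on chromosome 3, measured 24.0, 13.8, 36.8, 34.5, 36.5, 23.8, 34.8 and 40.3 TPM at 0, 6, 12, 24, 36, 48, 72 and 96 h in replicate 1. In replicate 2 it measured 24.2, 16.7, 19.8, 25.0, 34.8, 21.9, 24.8 and 15.1 TPM. Both replicates were lowest or next to lowest at 6 h, and at 96 h replicate 1 had its highest value and replicate 2 its lowest. Against 0 h the mean of 24 to 96 h gave a log2 fold change of 0.21 (SE 0.30, limma adjusted p = 0.714), and against 6 and 12 h it was 0.45 (SE 0.23, limma adjusted p = 0.361). The second was called with TMM-type scaling and the replicate block together (0.48, limma adjusted p = 0.0199, where 6.35% of all genes were called higher and 10% lower), and with neither of these alone. An antisense gene, DLG1-AS1, overlaps DLG1, and the sources used here do not say whether strand was used in counting. Genes on the other strand also overlap LLGL1 (FLII), MPP5 (ATP6V1D) and INADL (AC099791.2). The ratio of LLGL2 to LLGL1 shares this limit.

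SCRIB, the scaffold that names the complex, measured 19.2, 10.2, 38.0, 19.5, 28.4, 13.4, 21.3 and 23.3 TPM in replicate 1 and 12.4, 8.65, 9.04, 8.60, 5.82, 6.79, 9.79 and 8.93 TPM in replicate 2. It was higher in replicate 1 at 8 of 8 times, with a median log2 difference of 1.07, the widest gap between replicates among the 10 genes. It was not called in any comparison with 0 h (24 to 96 h: -0.25, SE 0.58, limma adjusted p = 0.830).

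In the Par complex, PARD6B, the PAR6 adaptor that joins atypical protein kinase C to CDC42, is on chromosome 20 (50731544 to 50756795 on GRCh38). Replicate 1 measured 10.1, 3.93, 4.55, 3.55, 3.05, 2.49, 2.90 and 2.74 TPM over the 8 times. Replicate 2 measured 12.7, 4.84, 5.19, 4.17, 2.70, 3.89, 3.14 and 3.97 TPM. All 14 libraries of 6 to 96 h lay below both of 0 h, and at 6 h the deposited level was 4.39 ± 0.643 TPM.

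The log2 fold change of PARD6B was -1.20 (SE 0.26, limma adjusted p = 0.169) at 6 h, -1.07 (SE 0.26, limma adjusted p = 0.111) at 12 h and -1.34 (SE 0.26, limma adjusted p = 0.0281) at 24 h. It was largest at 36 h (-1.67, limma adjusted p = 0.00729) and was -1.51 at 96 h. With TMM-type scaling the 6 h value was -0.74 (limma adjusted p = 0.337). With the replicate block the 12 h change was called too (limma adjusted p = 0.0298), where 0.684% of all genes were called lower. For 24 to 96 h the log2 fold change was -1.54 (SE 0.20, limma adjusted p = 0.00097), or -1.30 (limma adjusted p = 0.00585) with TMM-type scaling. Without replicate 2 of 0 h it was -1.39 (limma adjusted p = 0.0775). Against 6 and 12 h the later times differed by -0.41 (SE 0.15, limma adjusted p = 0.185).

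The paralogue PARD6A was lower in abundance, with 2.17 and 2.77 TPM in the 0 h libraries and 0.39 to 2.15 in those of 24 to 96 h. The log2 ratio of PARD6B to PARD6A was 1.81 and 1.86 at 0 h, 1.65 ± 0.32 at 6 and 12 h (SD, n = 4 libraries) and 1.11 ± 0.31 at 24 to 96 h (SD, n = 10 libraries). Later minus early it was -0.53 (p = 0.0240, adjusted p = 0.0340 over 2 ratios, exact permutation test, two-sided). Without replicate 1 or 2 of 12 h the p was 0.0769 or 0.0874 by the same exact test. The low TPM of PARD6A makes this ratio depend on the pseudocount; with 0.1 in place of 1 the difference was -0.73 (p = 0.0460, exact permutation test).

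PARD3, the PAR3 scaffold of the tight junction region, ranged from 35.1 to 84.5 TPM over all libraries. After 76.9 ± 10.7 TPM at 0 h it measured 49.1 ± 5.72 at 6 h and 71.2 ± 5.27 TPM at 96 h. The 6 h difference depended on the scaling: it was -0.63 on the log2 scale as deposited and -0.11 with TMM-type scaling, neither called. Its log2 fold change at 24 to 96 h was -0.39 (SE 0.23, limma adjusted p = 0.341). PRKCI, the atypical protein kinase C iota of the complex, measured 22.1 ± 1.28 TPM at 0 h, 25.5 ± 3.59 at 24 h and 20.5 ± 15.0 at 96 h. The wide error at 96 h came from 31.1 TPM in replicate 1 and 9.87 in replicate 2, the gene's lowest value. The log2 fold change of PRKCI at 24 to 96 h was -0.18 (SE 0.33, limma adjusted p = 0.778) as deposited and 0.07 with TMM-type scaling. PARD6B was the 1 gene of these 3 that was called.

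Of the Crumbs complex genes, CRB3 and INADL (PATJ) are shown first by sequence. The E-box letters CAGGTG, which SNAI and ZEB factors are known to bind, were searched with their reverse complement CACCTG in RefSeq promoter windows (GRCh38.p14, 250 bases before to 50 after a start site). These windows are shown because CRB3 and INADL are known targets of such repressors and had all 10 libraries of 24 to 96 h below both of 0 h in the deposited TPM. Of the 10 genes, 6 had a window. LLGL2, PARD3, PARD6B and SCRIB had none, so LLGL2 and PARD6B, the 2 genes called against 0 h without the block, could not be searched. CRB3 and INADL were not called there without the block. CRB3 held 5 matches and INADL 3, while LLGL1, PRKCI and MPP5 held 0, and DLG1 held 1 in 1 of its 5 windows. Over all 35116 windows, 20.6% held at least 1 match, 0.635% at least 3 and 0.094% at least 5. The matches of both genes follow, each as 30 bases of the plus strand, 5′ to 3′, with the E-box in capitals and the position of its first base counted from the RefSeq start site.
CRB3 at -228, chr19:6464031-6464060: atgctcgcaatgCAGGTGtaaggtccccct
CRB3 at -208, chr19:6464051-6464080: aggtccccctcaCACCTGcgcgcttccgcg
CRB3 at -147, chr19:6464112-6464141: ggggtcccgttaCAGGTGcgcccacagcgc
CRB3 at -89, chr19:6464170-6464199: ctcagcgaggctCAGGTGcacaagccggaa
CRB3 at -60, chr19:6464199-6464228: agtgcgctctccCAGGTGagtgactaaact
INADL at -171, chr1:61742297-61742326: ccggtaggaattCACCTGcacgtaaacagc
INADL at -30, chr1:61742438-61742467: gggagggcctgcCAGGTGaggcgcggtcac
INADL at 10, chr1:61742477-61742506: ctcacttccgccCAGGTGaggcagggccga

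In GENCODE 29 all 5 CRB3 matches overlap an exon of 1 CRB3 transcript that starts upstream, where an overlap is 1 base or more. Of the INADL matches, the 1 at -171 overlaps no exon of the gene, the 1 at -30 an exon of 1 transcript and the 1 at 10 exons of 7. A match is a description of the letters and was not tested for binding. Of 5 such repressors, 0 were called at 24 to 96 h against 0 h on the deposited scale without the block. SNAI1 had 0.89 and 0.31 TPM in the 0 h libraries and 7.94 and 3.22 in those of 12 h. For 24 to 96 h against 0 h its log2 fold change was 1.27 (limma adjusted p = 0.0999), called with the replicate block (0.00419), with TMM-type scaling (0.0373) and after removal of the small RNAs (0.0428). ZEB1 had 13.7 and 13.1 TPM in the 0 h libraries and 38.0 and 7.11 in those of 96 h, with a log2 fold change of 0.47 (limma adjusted p = 0.557). SNAI2 had 1.0 and 0.05 TPM in the 0 h libraries and a log2 fold change of 1.25 (limma adjusted p = 0.219), called with the block (0.00727). ZEB2 stood at 0.44 (limma adjusted p = 0.488), called with TMM-type scaling and the block together (0.0324), and TWIST1 at -0.40 (limma adjusted p = 0.293).

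In the Crumbs complex, INADL, the multi-PDZ scaffold PATJ on chromosome 1 (61742406 to 62178675 on GRCh38), measured 15.1, 8.75, 16.1, 10.5, 11.8, 7.02, 9.51 and 9.54 TPM in replicate 1. In replicate 2 it measured 22.9, 12.9, 15.6, 12.95, 11.3, 12.2, 11.3 and 7.91 TPM. All 10 libraries of 24 to 96 h lay below both of 0 h, while replicate 1 of 12 h lay above replicate 1 of 0 h. Such a gap to 0 h was found on the deposited scale for 4 of the 10 genes (INADL, LLGL2, PARD6B and CRB3), against 18% of all genes. It was found for 3 after removal of the small RNAs (12.6% of all genes), without CRB3, and for LLGL2 and PARD6B alone with TMM-type scaling (8.9%). INADL overlapped there, with a highest later value of 13.6 and a lowest value at 0 h of 13.3. The log2 fold change at 24 to 96 h was -0.80 (SE 0.23, limma adjusted p = 0.0548), not called. With the replicate block INADL was called lower at 24 to 96 h (limma adjusted p = 0.0216, 9.08% of all genes lower), at 48 h (limma adjusted p = 0.0325, 14.9%) and at 96 h (limma adjusted p = 0.0438, 3.31%). With TMM-type scaling the difference was -0.55, not called without the block (limma adjusted p = 0.165) and called with it (limma adjusted p = 0.00673). Without replicate 2 of 0 h it was -0.52 (limma adjusted p = 0.703).

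CRB3, the short transmembrane Crumbs protein of mammalian epithelia on chromosome 19, is described here after its values were seen, since it was called in no comparison. It measured 2.96, 2.42, 2.03, 1.77, 1.70, 1.11, 2.05 and 1.04 TPM in replicate 1 and 3.57, 2.83, 2.52, 2.25, 1.51, 2.76, 2.0 and 2.71 TPM in replicate 2. All 14 libraries of 6 to 96 h lay below both of 0 h on the deposited scale. This held for 3 of the 10 genes (LLGL2, PARD6B and CRB3), against 6.83% of all genes tested. It held for LLGL2 and PARD6B but not for CRB3 after TMM-type scaling (3.34% of all genes) or after removal of the small RNAs (5.88%). CRB3 had a log2 fold change of -0.59 at 24 to 96 h (SE 0.26, limma adjusted p = 0.191). At about 2 TPM the added pseudocount of 1 understates its change. The genes SLC25A23 and DENND1C overlap CRB3 on the other strand.

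MPP5 (PALS1), the adaptor between CRB3 and PATJ, measured 22.2 ± 3.59 TPM before treatment, 12.0 ± 3.34 at 6 h and 17.9 ± 3.73 at 72 h. Its replicates lay at 25.0 and 10.8 TPM at 96 h. The log2 fold change at 24 to 96 h was -0.45 (SE 0.34, limma adjusted p = 0.471).

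**Figure D3:**
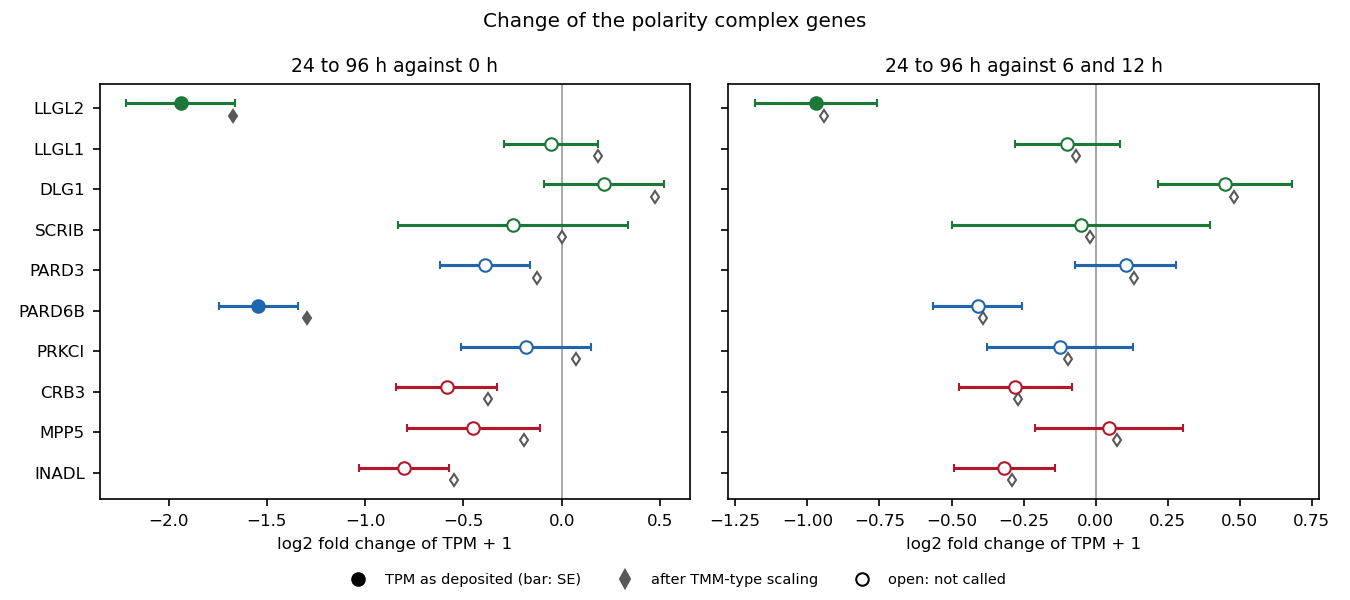
Log2 fold change of TPM + 1 (x axis) of the 10 genes for 24 to 96 h against 0 h (left) and against 6 and 12 h (right); circles with SE bars are TPM as deposited, coloured by complex, diamonds are after TMM-type scaling, and filled symbols passed an adjusted p of 0.05. LLGL2 (-1.94) and PARD6B (-1.54) lie farthest left against 0 h, and the diamonds lie to the right of the circles for all 10 genes.

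Other genes of the polarity machinery were taken from a list of 35, of which 28 passed the filter. Of these 28, 4 fell at 24 to 96 h against 0 h and 0 rose, where 5.35% of all genes were called lower and 1.77% higher. Their median log2 fold change was -0.31, beside -0.23 for all genes, and -0.07 beside -0.02 with TMM-type scaling. ECT2, which acts in cytokinesis, fell from 98.1 ± 23.7 TPM at 0 h to a mean of 37.1 TPM (17.3 to 48.9 in 10 libraries; log2 fold change -1.42, limma adjusted p = 0.0240). EPB41L4B, a FERM domain protein, fell from 4.17 ± 0.679 to 1.39 TPM (1.01 to 2.35; -1.13, limma adjusted p = 0.00509). PARD3B, the paralogue of PARD3, fell from 4.65 ± 0.700 to 2.01 TPM (0.97 to 2.95; -0.93, limma adjusted p = 0.0289). PARD6A, the paralogue of PARD6B, fell from 2.47 ± 0.424 to 0.999 TPM (0.39 to 2.15; -0.82, limma adjusted p = 0.0398), a call lost with TMM-type scaling (adjusted p = 0.135). Without replicate 1 or 2 of 0 h, or replicate 2 of 24 h, fewer of the 28 were called, and fewer of all genes as well. Each of these fits leaves 1 library at that time, and the loss was not particular to the 28.

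With the replicate block 6 of the 28 were lower (9.08% of all genes), the 2 further ones being OCLN, a tight junction protein (12.4 ± 1.70 to 6.82 TPM, limma adjusted p = 0.0447), and AMOTL2, an angiomotin-like junction protein (24.7 ± 1.92 to 11.4 TPM, 4.42 to 27.4 in 10 libraries, limma adjusted p = 0.0483). These 2, F11R and CDC42 are named after their values were seen. F11R, the junctional adhesion molecule that recruits PAR3, had 8.03 and 7.52 TPM in the 0 h libraries and 9.07 to 14.7 in the later 10. It differed by 0.55 on the log2 scale (SE 0.19, limma adjusted p = 0.106), not called; it was called higher after removal of the small RNAs (limma adjusted p = 0.0497) and with TMM-type scaling and the block together (limma adjusted p = 0.0253). CDC42, the GTPase that binds PAR6, measured 92.4 ± 5.56 TPM at 0 h and 88.6 to 108 TPM at 24 to 96 h (limma adjusted p = 0.701). Against 6 and 12 h, EPB41L4B was lower (-0.70, limma adjusted p = 0.0261) and DLG3, a DLG1 paralogue, was higher (0.61, limma adjusted p = 0.0447). In that comparison 2.46% of all genes were called lower and 1.07% higher. With the replicate block (5.39% lower and 2.29% higher) DLG4, another DLG1 paralogue, was called higher as well (0.98, limma adjusted p = 0.0143; 0.0536 without the block). NF2, the merlin gene, was then called lower (-0.80, limma adjusted p = 0.0349; 0.196 without the block). Both were also called with TMM-type scaling (DLG4 limma adjusted p = 0.00415, NF2 0.0480), where 745 of 16967 genes were called lower and 546 higher. With that scaling and the block together ECT2 and AMOTL2 were lower too (limma adjusted p = 0.0169 and 0.0160). In that fit 10% of all genes were called lower and 6.35% higher.

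**Figure D4:**
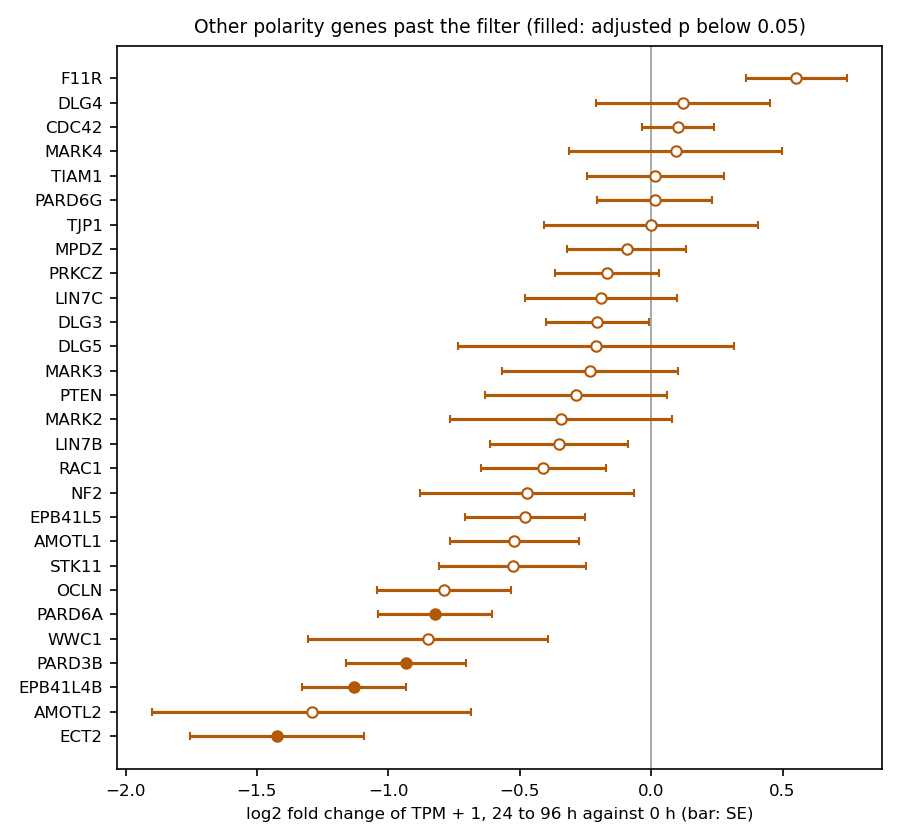
Log2 fold change of TPM + 1 at 24 to 96 h against 0 h (x axis, with SE bars) of the 28 other polarity genes that passed the filter (y axis), filled where the adjusted p was below 0.05. The 4 filled points, from ECT2 (-1.42) to PARD6A (-0.82), all lie left of 0.

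The genes whose course was most like that of LLGL2 over the 16 libraries, by Pearson correlation of log2(TPM + 1) among 9383 genes averaging 5 TPM or more, were PGD (r = 0.970), CDH1 (0.964), CREG1 (0.957), PSMB10 (0.954) and AKR1B10 (0.952). PGD, an enzyme of the pentose phosphate pathway, averaged 594 TPM at 0 h and 196 at 24 to 96 h, and CDH1, the E-cadherin gene, 21.0 and 1.85 TPM. With TMM-type scaling PGD (0.972) and AKR1B10 (0.959) stayed among the 5. For PARD6B the 5 were ERMP1 (0.957), CAMK2D (0.956), MFF (0.937), ARRB2 (0.936) and PKDCC (0.936). CAMK2D, a calcium-dependent kinase, averaged 27.6 TPM at 0 h and 5.88 at 24 to 96 h. Between themselves LLGL2 and PARD6B had a correlation of 0.911, and of 0.926 with TMM-type scaling. These libraries share times and replicate series, so the correlations are descriptions only.

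Other measures moved with time as well. The summed TPM of the 6 epithelial markers lay between 4887 and 5856 at 0 h, between 6056 and 6428 at 12 h and between 2204 and 2849 at 96 h. KRT8, KRT18 and KRT7 made up most of this sum. KRT7 averaged 1352 TPM over all libraries and 1118 at 0 h, while KRT8, KRT18, KRT19, EPCAM and CDH1 averaged less over all libraries than at 0 h. The 4 fibroblast markers summed to 1.71 to 5.40 TPM at 0 h, 21.6 to 159 at 12 h, 22.2 to 104 at 36 h and 3.47 to 49.4 TPM at 96 h. Of these 4, 1 had a mean of at least 1 TPM (COL1A1), while LUM was at most 1.86, DCN at most 0.80 and PDGFRA at most 0.79 TPM. Of 2 endothelial and 2 erythroid markers, 0 had a mean of at least 1 TPM, and CDH5 and HBB were at most 0.18 and 0.15 TPM. Of 3 leukocyte markers, 1 did: CD68 measured 3.07 to 8.41 TPM, CD14 at most 1.82 and PTPRC at most 0.31. Their sum lay between 4.12 and 8.64 TPM at 0 h and between 5.38 and 5.44 at 96 h. The part of the epithelial markers' change in the results of LLGL2 and PARD6B was not tested.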

How the data were processed

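Total RNA of 16 A549 libraries (8 times, 2 each) was extracted with Trizol and sequenced from Illumina TruSeq RNA libraries, per the labels' protocols. The authors deposited TPM, with a separate table per replicate number. The submitters' processing notes name Bowtie and RSEM and give no version; a genome build is not given in the sources used here. Columns were mapped by time and replicate number, and 0 columns belonged to other samples. The 10 genes, the other lists and the tests were chosen with earlier results of these data known.

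Values were log2(TPM + 1). After the filter of 1 TPM in 2 libraries, genes were fitted in limma 3.58.1 (R 4.3.3; 1 mean per time over all libraries, empirical Bayes with a mean trend, two-sided, Benjamini-Hochberg adjustment over 16967 genes, threshold 0.05). TMM-type scaling trimmed 30% of log ratios and 5% of mean levels at each end, without weights. Paralogue ratios were compared by an exact permutation test of 10 against 4 libraries, which treats libraries of different times as exchangeable. The fits were tested on simulated data with independent errors and a capped spread per gene. Libraries that deviate together by replicate number, as described below, were not simulated, so the test does not cover them.

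Libraries of the same replicate number deviated together from their time means in 28 of 28 pairs of times (lowest correlation 0.128, median 0.438), so the numbers were taken to pair the libraries. The fit with a replicate block is given beside results it changes. Genes were named by a rule: all 10 members, in every library if called in any test with or without the block or among the 3 with the widest range; other polarity genes if called, up to 4 in each direction; and the 5 genes most like each of the 2 members with the widest range. SCRIB and CRB3 are given in every library too, though neither was called in such a test or was among those 3. Coordinates are from GENCODE 29 by Ensembl identifier, and promoter windows from RefSeq.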

Additional observations from a re-analysis of the deposited data

How the results depend on the processing

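With 2 libraries at 0 h, the calls depended on settings more than the fold changes did. The calls of the 10 genes over the 7 times (10 as reported) numbered 3 with TMM-type scaling and 13 with that scaling and the replicate block together. The F test over the course (2 as reported) called 0 with TMM-type scaling, after removal of the 6 small RNAs, with a pseudocount of 0.1, with no filter, and without replicate 2 of 36 h and 48 h. The count for 24 to 96 h against 6 and 12 h (1 as reported) was 0 with TMM-type scaling, after removal of the small RNAs, with no filter and without replicate 2 of 36 h and 48 h, and 3 with TMM-type scaling and the replicate block together. In that last setting, TMM-type scaling and the block together, 2783 of 16967 genes were called. The other polarity genes called at 24 to 96 h (4 as reported) numbered 1 with no filter and 1 with a filter of at least 5 TPM. In these fits 1069 of 37826 and 961 of 10790 genes were called. The cause was not tested, except that the stricter filter removes genes of low TPM.

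With the replicate block the calls numbered 13 over the 7 times, 2 over the course, 3 at 24 to 96 h against 0 h, 1 against 6 and 12 h, and 6 for the other polarity genes. In that fit 12 to 2822 of 16967 genes were called per time against 0 h and 1040 over the course. At 24 to 96 h 2126 were called against 0 h and 1303 against 6 and 12 h. The ratio differences kept their values under the replicate block (-0.87, p = 0.0113, and -0.53, p = 0.0317, exact permutation within replicate numbers).

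Leaving out 1 library at a time gave 0 to 11 calls over the 7 times, 0 to 2 over the course, 0 to 3 at 24 to 96 h against 0 h, 0 to 1 against 6 and 12 h, and 0 to 5 for the other polarity genes. The ratio differences ranged from -1.15 to -0.69 for LLGL2 to LLGL1 and from -0.62 to -0.42 for PARD6B to PARD6A. Over 24 to 96 h against 0 h, LLGL2 lay between -2.07 and -1.81 and PARD6B between -1.69 and -1.39 when any 1 library was left out, each below 0 every time. The unknown depth limits what can be said of CRB3 and PARD6A, which lie near the filter.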
